A study of Bos taurus with 81 samples.

Results

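The last 2 Mb of each cattle autosome, the part next to the telomere, was followed through oocyte and early embryo chromatin. Its members were the 50 kb windows that tile the last 2 Mb of chromosomes 1 to 29, with the end of a chromosome taken as the highest peak end found in any of the 81 peak lists. This gave 40 windows per chromosome and 1160 windows in all, out of 49746 autosomal windows (2.33%). The choice used position and no level of any mark, apart from the peak that sets each chromosome end. The outermost window of a chromosome therefore holds a peak in at least 1 list by definition. The other 48586 autosomal windows served as the comparison, and the first 2 Mb of the same chromosomes (1160 windows) as a second one. The genome build was ARS-UCD1.2. An annotation or sequence of that build was not used here, so windows are given by position, without genes.

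The study profiled bovine oocytes and embryos produced in vitro from ovaries collected at slaughter. CUT&Tag, in which a transposase is tethered by an antibody to a histone mark, targeted H3K4me3, H3K27ac, H3K27me3 and H3K9me3. ATAC-seq, which tags open chromatin without an antibody, was done on blastocysts and their parts. The groups were germinal vesicle oocytes before maturation (GV), 2-cell embryos at 32 h after insemination (2C), 4-cell embryos at 44 h (4C), 8-cell embryos at 56 h (8C), 8-cell embryos of the same hour kept in 50 µg/ml α-amanitin (8A), morulae at 122 h (MO), whole blastocysts at 172 h (BL), inner cell mass freed by immunosurgery (ICM) and trophectoderm cut off with a micro scalpel (TE). There were 2 libraries of each mark and 3 of ATAC-seq in a group. A CUT&Tag library held about 500 oocytes or 1000 to 1500 blastomeres. Each is a pool, so more cells carrying a mark and more of the mark per cell cannot be told apart. The labels do not say that libraries of a group came from separate cultures. The p-values that compare groups therefore measure the spread between libraries, which may be technical. The purity of ICM and TE could not be checked, since peaks were not tied to genes.

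Cattle autosomes are acrocentric: the centromere lies at the low-numbered end, and the high-numbered end is the telomere-side arm. Regions near telomeres are typically rich in genes and in GC bases. H3K4me3 marks active promoters in most cells, and in mammalian oocytes it also lies in broad domains away from promoters. H3K27ac marks active promoters and enhancers. H3K27me3 is laid down by Polycomb repressive complex 2 on silent developmental genes, and H3K9me3 is the mark of heterochromatin. Amanitin blocks RNA polymerase II and so the activation of the embryonic genome, which in cattle takes place mainly around the 8-cell stage.

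The measure used throughout is coverage, the percentage of the bases of a region that lie under peaks of a list. The end ratio is the coverage of the last 2 Mb over that of the other autosomal windows of the same library. It is given as a fold or on a log2 scale. The active marks had the longer lists, H3K4me3 with 22745 to 185272 peaks and H3K27ac with 60270 to 163589. H3K27me3 lists had 14438 to 31472 peaks, H3K9me3 lists 11209 to 23813 and ATAC-seq lists 100390 to 154483. Read totals were not used here, so the depth is unknown, and how far list length follows depth was not tested. In one respect libraries of different marks were close to each other. In 4C, 8C and 8A embryos, the H3K27me3 and H3K9me3 lists covered largely the same bases: at 8C, 90.9% of the H3K27me3 bases of the chromosome ends were also under H3K9me3, and 85.8% in the rest of the autosomes. At GV the corresponding shares were 8.78% and 5.50%. At 2C they were 76.9% and 57.8%. Similar courses of both marks from 4C to 8A therefore describe largely the same bases, and those at 2C do so in part.

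In the lists as deposited, the mean coverage of the chromosome ends was above that of the other autosomal windows for all 4 marks in each of the 8 untreated groups. The excess was small for H3K27ac at GV (1.05-fold) and 8C (1.10-fold), where 16 and 13 of the 29 ends were above the remainder of their chromosome, and trimmed lists turned it at GV (-0.24 on the log2 scale). The mean end ratio over these groups was largest for H3K9me3, at 2.44 on the log2 scale, followed by H3K27me3 at 2.22, H3K4me3 at 1.88 and H3K27ac at 0.79. The exact two-sided sign-flip permutation test gave an adjusted p of 0.0098 for each mark over 8 groups, from the smallest p that 8 groups allow (0.0078). This test uses group means, so the spread between libraries does not enter it. All groups share the same windows, and ICM and TE are parts of the blastocyst, so the groups are not independent replicates. ATAC-seq had a mean of 1.06 with all 3 groups above 0, and its exact p of 0.25 is the smallest that 3 groups can give. The last 2 Mb was also more covered than the first 2 Mb, by 1.74 on the log2 scale in H3K27me3, 1.68 in H3K9me3, 1.48 in H3K4me3, 1.22 in ATAC-seq and 0.90 in H3K27ac, with the same exact p-values. Both the marks of active and those of silent chromatin were thus dense at this side of the chromosomes. The share of all covered autosomal bases that lay in the ends reached 15.4% ± 0.29 (SD, n = 2) for H3K27me3 at MO and 17.5% ± 1.28 (SD, n = 2) for H3K9me3 at BL. Of the 1160 members, 9 (0.776%) had no peak in any of the 81 lists, against 2.23% of the other windows. The outermost window of each of the 29 chromosomes could not be among them by definition.

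**Figure D1:**
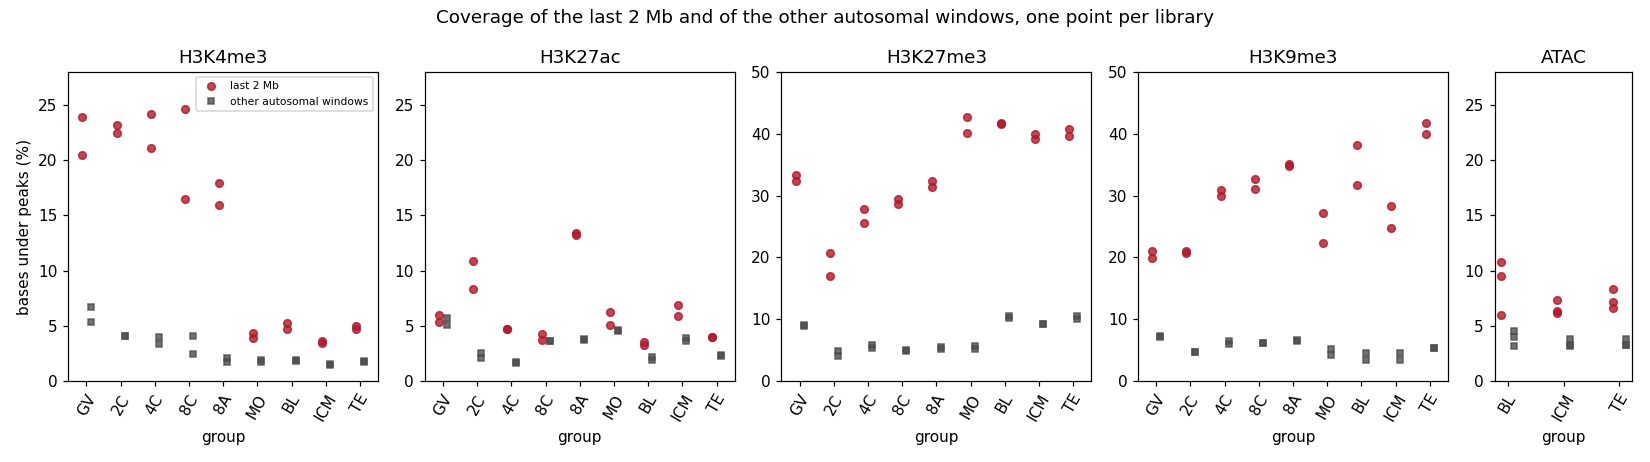
Coverage (y axis, percent of bases under peaks; the scale differs between panels) of the last 2 Mb (red circles) and of the other autosomal windows (grey squares), with one point per library and the groups on the x axis. H3K4me3 of the ends lies between 16.0 and 24.6% up to 8A and at or under 5.26% from MO on, while the lowest library of H3K27me3 is at 17.0% and that of H3K9me3 at 20.0%.

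H3K4me3 covered 20.5% to 22.8% of the chromosome ends on average from the oocyte to the 8-cell embryo and was far lower from the morula on. In GV oocytes the 2 libraries had 20.5% and 23.9% of the ends under H3K4me3. In 2C embryos they had 23.2% and 22.5%, and in 4C embryos 21.1% and 24.1%. The 8C libraries differed more, at 16.4% and 24.6%, and the values of these 4 groups overlap. At MO the libraries had 3.94% and 4.32%, well under every earlier library. BL stood at 4.99% ± 0.38, ICM at 3.51% ± 0.11 and TE at 4.84% ± 0.21 (SD, n = 2 each). The other windows were lower already at 2C, with 5.99% at GV, 4.09% at 2C, 3.23% at 8C and 1.78% at MO. The end ratio was therefore 3.72-fold at GV, 6.44-fold at 8C and 2.32-fold at MO. Lists trimmed by score to one covered length gave 10.4% ± 1.41 for the ends at 8C and 3.30% ± 0.055 at MO (SD, n = 2 each).

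The difference between the groups in the H3K4me3 end ratio passed the exact permutation test (adjusted p = 9.87e-06, 8 groups of 2 libraries). A window was called between 2 groups where every library of one lay above every library of the other and the means differed by at least 2 percentage points for H3K4me3, H3K27ac and ATAC-seq, or 10 for H3K27me3 and H3K9me3. By this rule 764 members (65.9%) were lower in H3K4me3 at MO than at 8C, against 18.9% of all autosomal windows, and 54 members (4.66%) were higher, against 4.89%. In trimmed lists the counts were 479 lower and 123 higher. For trimmed lists, here and below, the share of all autosomal windows called was not computed. Such counts give only the balance of directions among the members. Of the 29 chromosome ends, 28 were lower at MO in both libraries and 1 overlapped. The members with the largest differences had broad coverage at 8C and almost none at MO. One on chromosome 17 (chr17:72796200-72846199) had 79.0% ± 7.71 and 4.25% ± 0.35, and one on chromosome 12 (chr12:85710000-85759999) 74.0% ± 9.48 and 0.75% ± 1.06 (SD, n = 2 each). Median peak width was 650 to 1050 bp at 8C and 1150 to 1300 bp at MO in the ends, and 600 to 850 bp and 1250 to 1350 bp in the rest of the autosomes. The mean number of peaks in the ends was 9176 at 8C and 1490 at MO.

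Some members went the other way, at a share (4.66%) close to that of all autosomal windows (4.89%). The largest gain was on chromosome 11 (chr11:106522200-106572199), where H3K4me3 covered 21.2% and 24.1% at 8C and 40.1% and 41.1% at MO. The outermost 50 kb of chromosome 7 (chr7:110632200-110682199) held 7.20% ± 1.84 at 8C and 23.4% ± 0.99 at MO (SD, n = 2 each). The chromosome 7 end as a whole had the lowest H3K4me3 of all ends at 8C (3.25%), and the chromosome 27 end at MO (0.0725%).

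The bases that carried H3K4me3 at 8C in the ends were mostly under H3K27me3 one stage later. For these overlaps a base counted only where both libraries of a group had a peak. Of the 8C H3K4me3 bases of the ends, 16.5% were still under H3K4me3 at MO, against 47.3% in the rest of the autosomes. At MO 77.1% of them were under H3K27me3 (rest 33.6%) and 35.4% under H3K9me3 (rest 9.60%). At BL the shares were 76.3% and 57.1%, against 43.8% and 19.8% in the rest. Chromosome ends are densely covered by H3K27me3 at these stages in any case, at 41.4% of all their bases at MO, so the shares are given with no test. Conversely, 70.9% of the H3K4me3 bases of the ends at MO had been under H3K4me3 at 8C, close to the 65.6% of the rest.

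The share of H3K4me3 bases under a repressive mark within one stage was also larger in the ends than in the rest. In GV oocytes 69.9% of the H3K4me3 bases of the ends were under H3K27me3, against 37.8% in the rest. This share was 19.0% at 2C, 26.4% at 4C and 23.1% at MO in the ends, and 6.49%, 8.57% and 9.99% in the rest. At 8C it was 30.5% in the ends and 7.003% in the rest. With H3K9me3 the overlap was 0.957% at GV, 31.5% at 8C and 5.91% at MO in the ends, and 0.582%, 7.34% and 2.52% in the rest. Bases under H3K4me3, H3K27me3 and H3K9me3 at once made up 26.4% of the H3K4me3 bases of the ends at 8C and 38.6% at 8A, but 5.53% and 10.8% in the rest. These shares follow the denser coverage of the ends. Divided by the overlap expected if both marks lay independently, overlap of H3K4me3 with either repressive mark was smaller in the ends in every group. With H3K27me3 this ratio was 2.40 in the ends and 5.60 in the rest at GV, 1.22 and 1.83 at 8C, and 0.61 and 2.23 at MO. With H3K9me3 it was 0.28 and 0.70 at MO. Such overlaps come from separate libraries of pooled cells and do not show that the marks sit on the same nucleosome or in the same cell.

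**Figure D2:**
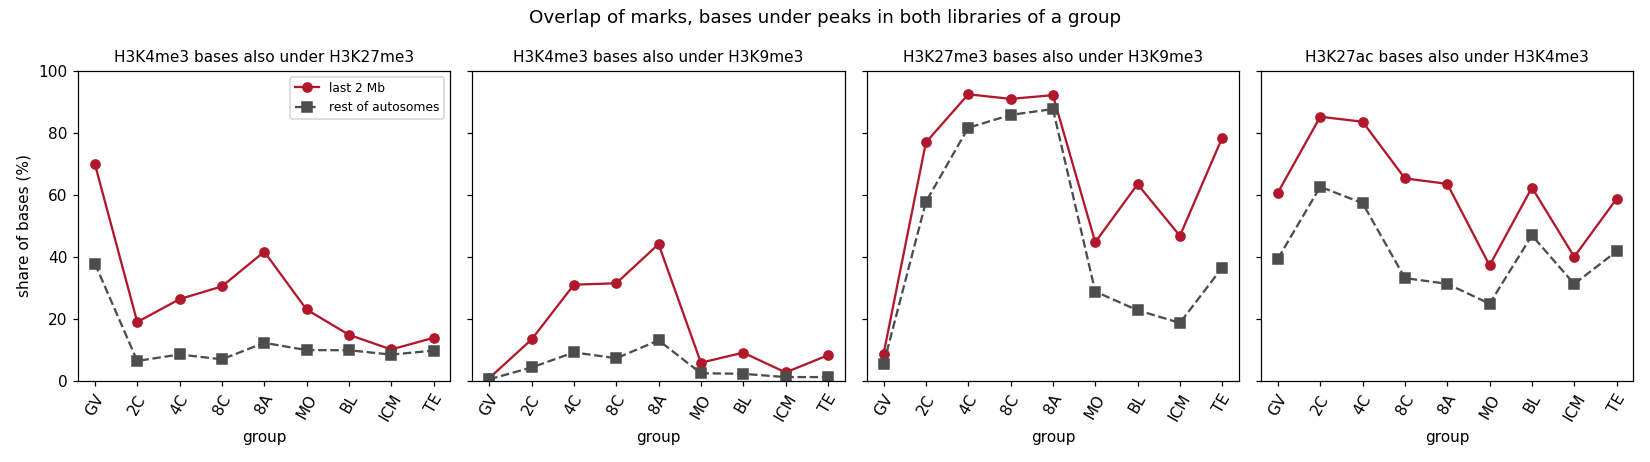
Share of the bases under one mark that were also under another (y axis, percent) in each group (x axis), for the last 2 Mb (red) and the rest of the autosomes (grey), counting bases under peaks in both libraries. The H3K27me3 share under H3K9me3 moves from 8.78% at GV to 90.9% at 8C in the ends, and H3K27ac bases lie more under H3K4me3 in the ends than in the rest in every group. Shares are not corrected for the larger coverage of the ends by each mark.

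H3K27ac had the smallest mean end ratio of the 4 marks, and the ends exceeded the rest mainly at 2C, at 4C and with amanitin. At GV the ends held 5.34% and 6.01% in the 2 libraries and the other windows 5.39% ± 0.43, a 1.05-fold end ratio. At 2C the ends held 8.35% and 10.8%, and the other windows 2.30% ± 0.33, a 4.17-fold ratio. The ends were thus higher and the other windows lower at 2C than at GV. At 4C the ratio was 2.78-fold, with 4.68% ± 0.013 in the ends, and at 8C it was 1.10-fold, with 3.97% ± 0.36 (SD, n = 2 each). From MO to TE the ratio lay between 1.25-fold at MO and 1.71-fold at TE. The groups differed by the exact permutation test (adjusted p = 5.37e-05, 8 groups of 2 libraries).

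Between GV and 2C, 477 members (41.1%) were called higher in H3K27ac at 2C, against 5.58% of all autosomal windows, and 243 (20.9%) lower, against 33.7%. Trimmed lists gave 580 higher and 75 lower. The joint exact test over the 4 marks, which asks whether the end ratios of 2 adjacent groups differ, gave an adjusted p of 0.0216 for GV and 2C, where the smallest p that 4 marks with 2 libraries per group allow is 0.0123. A single mark with 2 libraries against 2 cannot reach 0.05 (the smallest exact p is 1 in 3 arrangements), so no step is tested in one mark. The largest gains of the 2C embryo over the oocyte were on chromosome 21 (chr21:69156200-69206199), from 1.2% and 1.3% to 47.9% and 69.1%, and on chromosome 25 (chr25:40747000-40796999), from 0.90% ± 1.27 to 58.1% ± 7.07 (SD, n = 2 each). The largest difference in the other direction was near the tip of chromosome 15 (chr15:84807400-84857399), from 58.9% ± 1.13 to 13.5% ± 0.57. The H3K27ac of the ends at 2C lay on H3K4me3: 85.2% of its bases were also under H3K4me3, against 62.6% in the rest.

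With amanitin, H3K27ac of the 8-cell ends was high. The 8A libraries covered 13.3% and 13.4% of the ends, and the 8C libraries 4.22% and 3.72%, so that 8A stood well above 8C. The other windows hardly differed, at 3.76% ± 0.089 and 3.61% ± 0.016 (SD, n = 2 each). The end ratio was 3.54-fold in 8A and 1.10-fold in 8C. All 29 chromosome ends were higher in both 8A libraries than in both 8C libraries. Of the members, 724 (62.4%) were called higher in 8A, against 19.9% of all autosomal windows, and 78 (6.72%) lower, against 18.5%. Trimmed lists gave 534 higher and 60 lower, and ends at 7.42% ± 0.21 in 8A against 2.06% ± 0.15 in 8C.

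The chromosome 21 window named above (chr21:69156200-69206199) had the largest difference, with 69.0% and 72.6% in 8A and 1.5% and 2.1% in 8C. The chromosome 25 window (chr25:40747000-40796999) had 66.2% and 65.7% against 4.4% and 2.0%. Both were among the windows with high H3K27ac at 2C, and at 4C they held 31.3% ± 1.27 and 16.5% ± 5.94 (SD, n = 2 each). Over all ends, 87.3% of the H3K27ac bases of 4C were under H3K27ac in 8A and 27.3% in 8C, against 76.9% and 44.99% in the rest of the autosomes. The 8A lists were longer there, with 5.51 Mb of the ends covered in both libraries against 1.47 Mb in 8C. Read the other way, 22.2% of the 8A bases and 26.0% of the 8C bases of the ends had been under H3K27ac at 4C. In 8A 63.6% of the H3K27ac bases of the ends were also under H3K4me3, and 72.6% lay where 8C embryos had H3K4me3 (rest 31.3% and 45.2%). A few members were lower with amanitin. The chromosome 11 window (chr11:106522200-106572199) held 33.6% ± 1.27 in 8C and 6.10% ± 1.13 in 8A, and one on chromosome 3 (chr3:120405200-120455199) 28.8% ± 3.25 and 2.15% ± 0.78 (SD, n = 2 each).

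**Figure D3:**
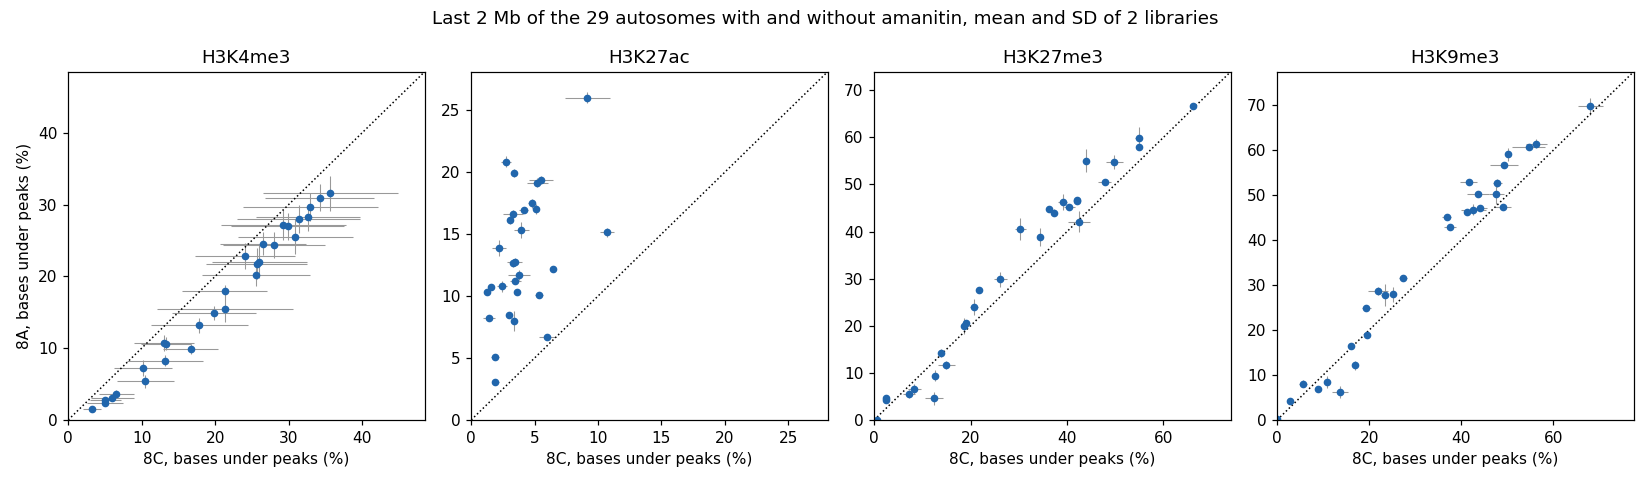
Coverage of the last 2 Mb of each of the 29 autosomes in 8C (x axis, percent) and 8A (y axis, percent), with the mean and SD of 2 libraries per point and the dotted line where both are equal. For H3K27ac all 29 points lie above the line, while the H3K4me3 means lie below it with wide 8C error bars, an order that turns in trimmed lists.

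The other marks differed less between 8A and 8C. H3K27me3 covered 31.8% ± 0.66 of the ends in 8A and 29.1% ± 0.51 in 8C, and H3K9me3 34.9% ± 0.26 and 31.8% ± 1.14 (SD, n = 2 each). The other windows were higher in 8A too, at 5.36% against 4.99% for H3K27me3 and 6.58% against 6.14% for H3K9me3. The end ratio thus hardly differed, at 5.94-fold in 8A and 5.82-fold in 8C for H3K27me3, and 5.30-fold and 5.18-fold for H3K9me3. Members called higher in 8A numbered 200 for H3K27me3 (17.2%, against 4.48% of all windows) and 208 for H3K9me3 (17.9%, against 4.72%). Those called lower numbered 72 (6.21%, against 2.68%) and 62 (5.34%, against 2.55%). Trimmed lists gave 132 higher and 80 lower for H3K27me3, and 93 higher and 57 lower for H3K9me3. A window near the tip of chromosome 16 (chr16:80856200-80906199) led in both marks, at 5.60% ± 7.92 in 8C and 55.6% ± 4.53 in 8A for H3K27me3. Chromosome 7 held the largest differences in the other direction, such as chr7:109132200-109182199 with 72.4% ± 5.66 H3K27me3 in 8C and 9.80% ± 3.68 in 8A.

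For H3K4me3 the direction between 8A and 8C rests on the lists as deposited. The ends held 16.9% ± 1.36 in 8A and 20.5% ± 5.80 in 8C (SD, n = 2 each), with overlapping libraries, and 310 members (26.7%, against 17.2% of all windows) were called lower and 5 (0.431%, against 0.0543%) higher. In trimmed lists 66 were lower and 343 higher, so no direction is drawn. The count of called members was 487 without 8A replicate 1, 875 without 8C replicate 1 and 512 without 8C replicate 2. The joint exact test of 8C and 8A over the 4 marks gave an adjusted p of 0.0346. Its raw p was 0.0247, and it ranged from 0.0123 to 0.0617 when one library was left out. After adjustment it missed 0.05 without H3K27me3 8A replicate 1, without either H3K27me3 8C library, without either H3K9me3 8A library and without H3K9me3 8C replicate 2.

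H3K27me3 was present at the ends from the oocyte on, lowest at 2C and, in the lists as deposited, highest from the morula on. The GV libraries had 33.4% and 32.4% of the ends under it, and the 2C libraries 17.0% and 20.7%. Coverage was 26.7% ± 1.63 at 4C and 29.1% ± 0.51 at 8C (SD, n = 2 each). At MO the libraries had 42.7% and 40.1%, above every earlier library. BL, ICM and TE stayed between 39.6% and 41.6%. The ends were thus lowest at 2C, and from MO on they stayed near one level in the lists as deposited. In trimmed lists MO stood alone, at 36.8% ± 0.77, with 26.0% ± 0.30 at 8C, 26.5% ± 0.65 at BL, 26.4% ± 0.15 at ICM and 25.3% ± 0.025 at TE (SD, n = 2 each). The other windows had a different course. They held 8.99% ± 0.018 at GV, 4.51% ± 0.55 at 2C, 5.44% ± 0.36 at MO and 10.4% ± 0.30 at BL (SD, n = 2 each). The end ratio was therefore largest at MO, at 7.62-fold, and 4.02-fold at BL. The groups differed by the exact permutation test (adjusted p = 3.7e-06, 8 groups of 2 libraries), and the joint exact test of MO and BL gave an adjusted p of 0.0216.

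At 2C 515 members (44.4%) were lower in H3K27me3 than at GV, against 18% of all autosomal windows, and 196 (16.9%) higher, against 6.48%. Trimmed lists gave 378 lower and 235 higher. Several members were nearly covered at GV and had none at 2C. The chromosome 16 window (chr16:80856200-80906199) had 96.8% and 97.6% at GV and 0 in both 2C libraries, and one on chromosome 12 (chr12:86010000-86059999) had 96.2% ± 5.37 and 0. The opposite was seen on chromosome 23 (chr23:51348200-51398199), from 0 to 79.6% ± 14.1. Of the GV H3K27me3 bases of the ends, 25.7% were still under the mark at 2C, against 17.8% in the rest. At 2C the mark covered 18.9% of all bases of the ends and 4.51% of the other windows.

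From 8C to MO, 546 members (47.1%) were higher in H3K27me3, against 11.6% of all windows, and 266 (22.9%) lower, against 9.11%. Of the ends, 23 were higher in both libraries and 4 lower. Neighbouring windows on chromosome 8 (chr8:111880000-111929999 and chr8:111930000-111979999) had no H3K27me3 in either 8C library and were covered whole in both MO libraries. In the other direction, a window on chromosome 12 (chr12:86310000-86359999) was covered whole at 8C and had none at MO. Of the 8C H3K27me3 bases of the ends, 51.0% were under it at MO, against 21.3% in the rest. At MO the mark covered 41.4% of all bases of the ends and 5.44% of the other windows, so the shares are given with no test. From 8C to MO the end ratio differed by 30.8 pooled within-group SDs in H3K4me3 and by 14.5 in H3K27me3. The joint exact test of the end ratios of 8C and MO over the 4 marks gave an adjusted p of 0.0617, which misses 0.05. Its raw p ranged from 0.0247 to 0.0988 when one library was left out, and after adjustment it was below 0.05 without H3K27ac MO replicate 2.

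H3K9me3 covered more of the ends at 4C and 8C than at 2C, was lower at MO, as it was in the other windows, and higher again at BL and TE. The GV libraries held 20.0% and 21.0% and the 2C libraries 21.1% and 20.7%. At 4C it was 30.4% ± 0.75 and at 8C 31.8% ± 1.14 (SD, n = 2 each). All 29 ends were higher at 4C than at 2C in both libraries. MO stood at 24.7% ± 3.47 and BL at 34.9% ± 4.59 (SD, n = 2 each). The other windows held 6.14% ± 0.0053 at 8C and 4.70% ± 0.77 at MO, so the end ratio hardly differed, at 5.18-fold and 5.27-fold. Trimmed lists gave 23.4% ± 1.45 for the ends at 8C and 21.5% ± 1.37 at MO (SD, n = 2 each). The ends were 2.85-fold above the other windows at GV and 8.86-fold at BL, where the other windows held 3.98% ± 0.87. The groups differed by the exact permutation test (adjusted p = 3.7e-06, 8 groups of 2 libraries). In the end ratio, H3K9me3 differed by 1.60 pooled within-group SDs from 2C to 4C and by 1.13 from 4C to 8C. Both were the smallest of the 4 marks. The joint exact tests sum over the 4 marks, so H3K9me3 added least to them. That of 2C with 4C gave an adjusted p of 0.0216 and that of 4C with 8C one of 0.0617. The raw p of the latter ranged from 0.0123 to 0.0864 when one library was left out, and after adjustment it was below 0.05 without either one of the H3K4me3 8C libraries.

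At 2C 190 members (16.4%) were higher in H3K9me3 than at GV, against 3.05% of all windows, and 206 (17.8%) lower, against 10.8%. Trimmed lists gave 208 higher and 88 lower. From 8C to MO 281 (24.2%, against 11.6%) were higher and 375 (32.3%, against 11.7%) lower, and in trimmed lists 318 and 267, so the balance of directions depends on the trimming. The chromosome 12 window chr12:86310000-86359999 and one on chromosome 11 (chr11:106622200-106672199) went from full H3K9me3 coverage at 8C to none at MO. Chromosome 9 held the largest gain (chr9:103115700-103165699), from 3.20% ± 4.53 to 86.4% ± 1.13 (SD, n = 2 each). For H3K27ac, 363 members (31.3%, against 24.9%) were higher at MO than at 8C and 226 (19.5%, against 20.7%) lower, or 160 and 157 in trimmed lists. For H3K4me3 from GV to 2C, 297 (25.6%, against 3.61%) were higher and 219 (18.9%, against 25.8%) lower, or 351 and 85 in trimmed lists. These comparisons share the 8C or the GV and 2C libraries with those above.

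Between the cell types of the blastocyst the largest difference at the ends in percentage points was in H3K9me3, while on the log2 scale it was 0.62 for H3K9me3 and -0.67 for H3K27ac (TE over ICM). The ICM libraries covered 24.7% and 28.3% and the TE libraries 41.8% and 39.9%, with no overlap. The other windows held 3.97% ± 0.84 in ICM and 5.34% ± 0.060 in TE (SD, n = 2 each). In TE 494 members (42.6%) were called higher, against 8.62% of all windows, and 53 (4.57%) lower, against 4.65%. Of the chromosome ends 25 were higher in TE, 1 was lower and 3 overlapped. Windows on chromosome 16 (chr16:80356200-80406199) and chromosome 25 (chr25:42047000-42096999) had no H3K9me3 in either ICM library and 91.4% ± 0.28 and 90.8% ± 0 in TE (n = 2). H3K9me3 of the ends lay mostly under H3K27me3 in both cell types, with 80.3% of its bases in TE and 80.2% in ICM. In the rest of the autosomes these shares were 79.1% and 55.4%. Read the other way, 78.4% of the H3K27me3 bases of the ends were under H3K9me3 in TE, against 46.8% in ICM. For the rest of the autosomes the latter shares were 36.6% and 18.7%.

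H3K27me3 hardly differed between ICM and TE, at 39.6% ± 0.61 and 40.1% ± 0.80 of the ends (SD, n = 2 each). There were 150 members higher in TE (12.9%, against 9.27%) and 119 lower (10.3%, against 5.59%), or 82 and 134 in trimmed lists. H3K27ac of the ends was lower in TE, at 3.99% ± 0.014 against 6.35% ± 0.71 in ICM, and so was that of the other windows, at 2.33% ± 0.082 and 3.75% ± 0.18 (SD, n = 2 each). Trimmed lists had 2.87% ± 0.079 in the ends of TE and 3.10% ± 0.23 in those of ICM (SD, n = 2 each). Members lower in TE numbered 314 (27.1%, against 19.3%) and members higher 91 (7.84%, against 6.05%), or 144 and 131 in trimmed lists. H3K4me3 was called higher in TE in 229 members (19.7%, against 6.24%) and lower in 29 (2.50%, against 1.71%), or 126 and 71 in trimmed lists. The end ratio of ATAC-seq was 1.95-fold in ICM, 2.14-fold in TE and 2.21-fold in BL. For ATAC-seq 201 members (17.3%, against 9.89%) were higher in TE and 123 (10.6%, against 10.2%) lower.

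A window on chromosome 22 (chr22:59365650-59415649) differed in several assays at once. ATAC-seq covered 6.9%, 9.2% and 2.0% of it in the ICM libraries and 41.5%, 47.7% and 35.3% in the TE libraries. H3K4me3 was at 0.5% ± 0.71 in ICM and 36.7% ± 0.92 in TE, and H3K27ac at 3.7% ± 0.71 and 38.4% ± 7.92 (SD, n = 2 each). H3K27me3 had the reverse order, at 40.3% ± 8.49 in ICM and 4.4% ± 6.22 in TE. The window was thus open and active in TE and under H3K27me3 in ICM. The chromosome 11 window (chr11:106522200-106572199) leaned towards ICM, with H3K27ac at 64.5% and 62.8% in ICM and 14.5% and 18.2% in TE, and ATAC-seq at 41.7% ± 2.65 and 23.2% ± 3.51 (SD, n = 3 each). On chromosome 1 (chr1:157281200-157331199) H3K27ac covered 61.0% and 63.0% in ICM and 1.6% and 0.8% in TE.

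The joint exact test of ICM and TE over the 5 assays gave an adjusted p of 0.0216, and its raw p ranged from 0.00247 to 0.0457 when one library was left out. After adjustment it missed 0.05 without H3K9me3 ICM replicate 2 and without either H3K9me3 TE library. The median end ratio over the 29 chromosomes in place of pooled bases gave a raw p of 0.106. For ATAC-seq alone, the exact permutation test of the end ratio over BL, ICM and TE gave p = 0.25, and 0.00357 without BL replicate 1, whose coverage of the ends was 6.02% against 9.49% and 10.8% in the other BL libraries.

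The excess of coverage did not stop at 2 Mb. In steps of 500 kb, H3K27me3 at MO was 27.8% ± 1.61 in the outermost step, 49.2% ± 1.96 at 1 to 1.5 Mb, 48.6% ± 1.99 just inside the 2 Mb edge and 45.1% ± 2.09 just outside it (SD, n = 2 each). H3K4me3 at 8C was 20.8% ± 6.72 just inside and 16.9% ± 6.01 just outside. H3K27ac in 8A was 12.8% ± 0.0075 just inside and 11.8% ± 0.24 just outside (SD, n = 2 each). The edge is therefore a convention. H3K27me3 and H3K9me3 in every group, and H3K4me3 and H3K27ac in some, were lower at 9.5 to 10 Mb than just beyond the edge. Others were not: H3K27ac at GV was 5.67% just beyond the edge and 8.98% at 9.5 to 10 Mb, H3K4me3 at MO 2.47% and 3.46%, and ATAC-seq in BL 6.29% and 6.66%.

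Inside the last 2 Mb, the outermost 500 kb was often the least covered by the repressive marks. The log2 ratio of the outermost to the innermost 500 kb was -0.53 on average for H3K27me3 and -0.49 for H3K9me3, with 1 and 2 of 8 groups above 0. By the exact sign-flip permutation test over 8 groups the adjusted p was 0.0781 and 0.130, so neither passed. H3K4me3 averaged 0.24 (adjusted p = 0.320, 4 of 8 groups above 0), H3K27ac 0.29 (adjusted p = 0.117, 6 of 8 groups) and ATAC-seq 0.43 (adjusted p = 0.3125, 3 of 3 groups, by exact tests). For H3K4me3 the groups lay on both sides. The outermost step was below the innermost from GV (17.2% ± 1.89 and 24.1% ± 2.84) to 8C (16.5% ± 4.64 and 20.8% ± 6.72), and above it from MO (4.99% ± 0.29 and 3.02% ± 0.22) to TE (6.09% ± 0.27 and 3.15% ± 0.11; SD, n = 2 each). With the last 1 Mb or the last 5 Mb as the end, these averages change sign for several assays, as given under the processing alternatives.

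**Figure D4:**
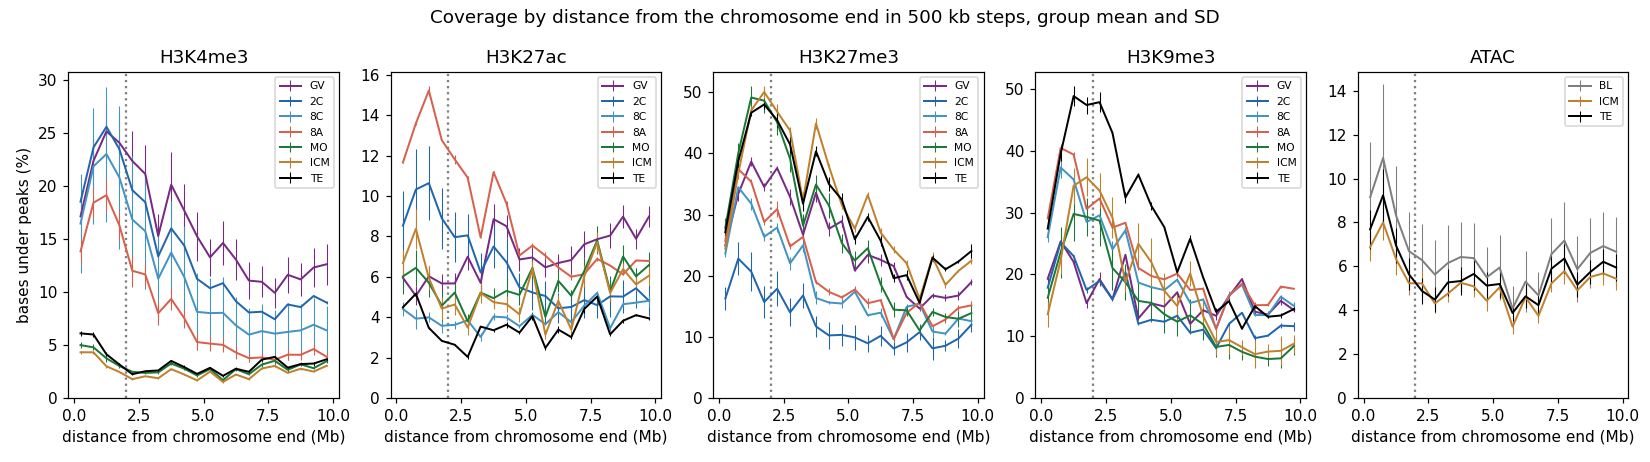
Coverage (y axis, percent of bases under peaks; the scale differs between panels) against distance from the chromosome end in 500 kb steps (x axis, Mb), as group mean with SD over libraries; the dotted line is the 2 Mb edge. H3K27me3 at MO moves from 27.8% in the outermost step to 49.2% at 1 to 1.5 Mb and 45.1% just beyond the edge.

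The 29 ends were not alike. Averaged over the untreated groups, H3K4me3 covered 24.7% of the end of chromosome 17, 23.5% of chromosome 29 and 22.0% of chromosome 11, and 3.46% of chromosome 1, 2.93% of chromosome 27 and 2.54% of chromosome 7. The median end had 14.1%. The ends of chromosomes 27 and 7 were the only ones with less H3K4me3 than the remainder of their own chromosome, at 0.95-fold and 0.81-fold. H3K27ac was highest on chromosomes 17 (13.4%), 29 (9.24%) and 21 (9.16%) and lowest on 7 (2.40%), 13 (2.39%) and 27 (1.70%). In 6 ends H3K27ac was below the remainder of the chromosome. ATAC-seq led on chromosomes 17 (22.6%), 6 (14.96%) and 16 (14.5%) and was lowest on 8 (2.40%), 13 (1.12%) and 27 (0.481%). In 8 ends it was below the remainder of the chromosome, down to 0.185-fold on chromosome 27, and the highest was 6.755-fold on chromosome 17.

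H3K27me3 was highest on chromosomes 20 (54.0%), 2 (53.5%) and 5 (53.3%) and lowest on 1 (10.8%), 27 (9.89%) and 7 (8.17%). H3K9me3 was highest on 11 (47.8%), 2 (46.1%) and 5 (45.05%) and lowest on 1 (10.9%), 28 (7.04%) and 27 (2.19%). Chromosome 27 was thus among the 3 lowest ends in all 5 assays, and chromosome 1 and 7 in 3 of them. Across the 29 ends the Spearman correlation of these means was 0.90 between H3K27me3 and H3K9me3, 0.93 between H3K27ac and ATAC-seq, 0.81 between H3K4me3 and H3K27me3 and 0.43 between H3K27me3 and ATAC-seq. These are correlations over chromosomes from the same libraries, and chromosomes are not independent replicates. From MO to TE the chromosome 17 end had the highest H3K4me3, H3K27ac and ATAC-seq of all ends: at TE it had 17.2% H3K4me3 and 23.5% ATAC-seq, and at ICM 23.4% H3K27ac. The chromosome 8 end had 1.05% H3K4me3 and 66.0% H3K27me3 at ICM.

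**Figure D5:**
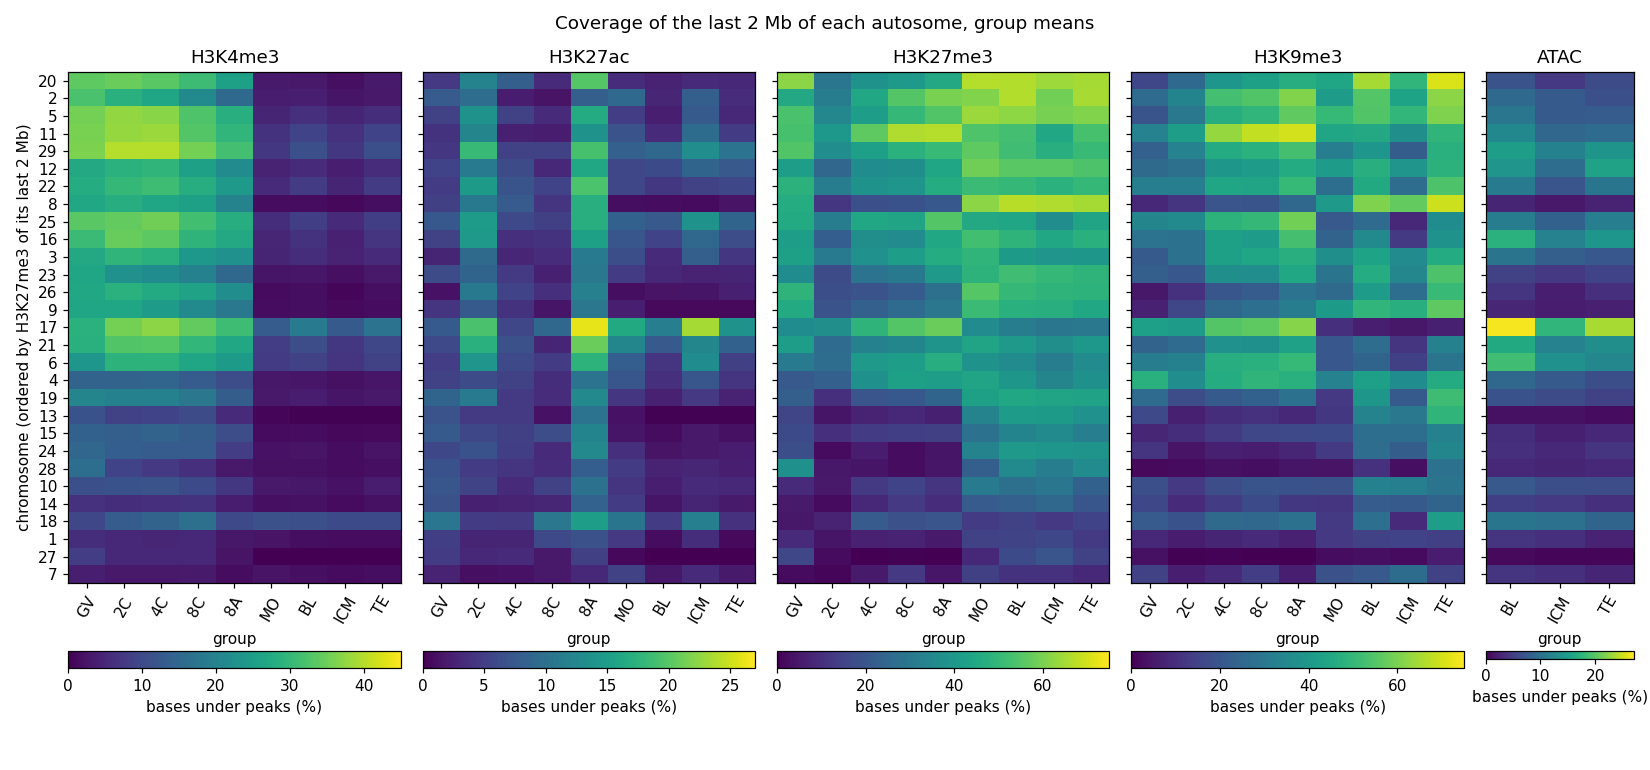
Coverage of the last 2 Mb of each autosome (rows, ordered by mean H3K27me3) in each group (columns) for the 5 assays, with colour giving the group mean in percent; each panel has its own colour scale. The ends of chromosomes 1, 27 and 7 at the bottom stay dark in most panels, and the H3K27ac column of 8A is brighter than that of 8C in every row.

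A small set of members was covered by a repressive mark in all 18 libraries of that mark. H3K27me3 covered at least 50% of the window in every library in 31 members, out of 99 such windows on all autosomes. They lay on 16 chromosomes, with 4 each on chromosomes 5, 11 and 29. H3K9me3 did so in 20 members out of 45 windows, 8 of them on chromosome 4. For H3K4me3, H3K27ac and ATAC-seq no member reached it. Both marks did so in a window on chromosome 2 (chr2:134878650-134928649), with H3K27me3 between 68.8% and 100% (median 95.2%) and H3K9me3 between 59.6% and 100% (median 100%), and in one on chromosome 4 (chr4:118855000-118904999), with 52.4% to 94.4% and 64.4% to 97.2%.

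Other members differed strongly between groups. The 6 windows that the lists of largest differences name at least 3 times, a choice made after their values were seen, show how. The chromosome 12 window (chr12:86310000-86359999) was under H3K9me3 from GV (95.8% ± 0.28) to 8C (100% in both libraries) and under H3K27me3 from 2C (91.2% ± 4.53) to 8C. From MO on neither mark was present in any library, and H3K27ac covered 26.5% and 12% in the MO libraries and 64.2% and 53.2% in the ICM libraries. In TE, ATAC-seq covered 48.9%, 62.1% and 50.5% of it, against 21.7%, 25.2% and 23.2% in ICM. This window thus carried repressive marks early and H3K27ac late. Its open chromatin was measured only in blastocysts and their parts, so no earlier state is known.

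The chromosome 25 window (chr25:40747000-40796999) took the opposite course. H3K4me3 covered 74.9% ± 10.6 of it at GV, 79.0% ± 11.7 at 8C and 10.4% ± 1.84 at MO. H3K27me3 was at 92.2% ± 3.68 at GV, 0 in every library from 2C to 8C, 83.8% ± 2.55 at MO and 100% in both BL libraries (SD, n = 2 each). The chromosome 16 window (chr16:80856200-80906199) was similar, with H3K27me3 at 97.2% ± 0.57 at GV, 0 at 2C, 77.0% ± 2.55 at MO and 94.8% ± 1.13 at TE (SD, n = 2 each). The chromosome 21 window (chr21:69156200-69206199) had more H3K4me3 early, at 70.3% ± 7.64 at GV and 80.1% ± 12.7 at 8C (SD, n = 2 each). It kept 29.3% and 27.4% in the MO libraries. At MO H3K27ac covered 49.0% ± 0.71 and H3K27me3 47.8% ± 0.85 of the window (SD, n = 2 each). ATAC-seq was at 42.8%, 65.6% and 76.8% in BL.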

How the data were processed

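Histone marks (CUT&Tag, 72 libraries) and open chromatin (ATAC-seq, 9 libraries) were measured in 9 groups, and one peak list per library was deposited. The submitters' processing notes name SICER, SAMtools 1.9, Picard 2.26.10, BWA 0.7.9a, cutadapt 1.8.3, Trim Galore 0.4.0 and the ARS-UCD1.2 build, without roles or settings. The deposited lists hold peak positions and a whole-number score whose meaning is not stated; the score served only to rank peaks within a list. Peaks lie on a 50 bp grid (H3K4me3, H3K27ac, ATAC-seq) or a 200 bp grid (H3K27me3, H3K9me3).

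Covered bases were computed per library in 50 kb windows counted back from the chromosome end (Python 3.11.15, NumPy 2.4.6, pandas 2.3.3). Groups come from the sample titles. Group means over the 8 untreated groups (3 for ATAC-seq) were tested by exact two-sided sign-flip permutation. Group differences were tested by exact permutation of libraries, 2027025 arrangements per mark, and pairs of groups by a one-sided exact test joint over marks. All p-values were adjusted by Benjamini-Hochberg over 5 assays or 7 pairs. Window calls carry no p-value. Windows and ends were named by rank: the 3 largest differences in each direction per comparison, the 3 highest and 3 lowest ends per assay, and members at least 50% covered in every library. Trimmed lists keep the top-scoring peaks of each library up to the covered length of the shortest list of its assay. The score rose with peak width in every list (Spearman correlation from 0.685 in H3K9me3 ICM replicate 1 to 0.965 in H3K4me3 BL replicate 1). Trimming therefore favours wider peaks, and how far this moves the trimmed values was not tested. The alternatives were other end sizes, trimmed or stricter lists, peak numbers, chromosome medians, leaving out empty windows, the first 2 Mb or single libraries, and a replicate block. The tests were checked on simulated data. The members and lists were chosen with earlier results of these data known. Depth is unknown, so no counting intervals are given. The label set gives no sequencing batch.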

Additional observations from a re-analysis of the deposited data

Results flagged for a closer look

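The coverage of the chromosome ends relative to the other autosomal windows differed between groups in all 4 marks. By exact permutation the adjusted p was 9.87e-06 for H3K4me3, 5.37e-05 for H3K27ac and 3.7e-06 for each of H3K27me3 and H3K9me3. Between pairs of groups, the joint exact test gave an adjusted p of 0.0216 for GV and 2C, for 2C and 4C, for MO and BL and for ICM and TE, and of 0.0346 for 8C and 8A.

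The log2 ratio of the outermost to the innermost 500 kb had opposite signs in adjacent groups, in every library of each. For H3K4me3 it was -0.33 at 8C and 0.73 at MO. For H3K27ac it was 0.070 at GV and -0.065 at 2C, then -0.19 at 4C, 0.30 at 8C and -0.13 at 8A. For H3K27me3 it was -0.47 at GV, 0.056 at 2C and -0.10 at 4C, and for H3K9me3 0.030 at 2C and -0.19 at 4C. These differences in sign were not tested, and the smaller values lie near 0.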

How the results depend on the processing

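The end ratio and the end-to-start ratio kept direction and side of the threshold in all alternatives run. So did the differences between groups in the end ratio, except for ATAC-seq, whose p lay between 0.00357 (without BL replicate 1) and 0.368 when one library was left out. The ratio of the outermost to the innermost part depended on the size of the end. With the last 1 Mb it was -0.26 for H3K4me3, -0.093 for H3K27ac and -0.41 for ATAC-seq, opposite in sign to the main values, and -0.72 for H3K27me3 and -0.69 for H3K9me3, both past the threshold. With the last 5 Mb it was 0.84 for H3K4me3, past the threshold, and 0.34 for H3K27me3 and 0.52 for H3K9me3, opposite in sign. As a median over chromosomes it was -0.033 for ATAC-seq. The causes were not tested.

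The joint exact tests moved across the threshold as follows, by raw p. With the last 1 Mb, 8C and MO gave 0.0123 and 8C and 8A 0.0741. With the last 5 Mb, 4C and 8C gave 0.0123 and 8C and MO 0.0494. Trimmed lists gave 0.0247 for 4C and 8C. The peaks scoring above the median of their list gave 0.0123 for 4C and 8C and 0.0864 for 8C and 8A. Numbers of peaks gave 0.0123 for 8C and MO and 0.0864 for 8C and 8A. Chromosome medians gave 0.0247 for 8C and MO, 0.0370 (0.0519 after adjustment) for MO and BL and 0.106 for ICM and TE. Leaving out one library gave 0.0123 to 0.0864 for 4C and 8C, 0.0247 to 0.0988 for 8C and MO, 0.0123 to 0.0617 for 8C and 8A, and 0.00247 to 0.0457 for ICM and TE. The labels do not tie same-numbered libraries to each other. The correlation of their deviations was above 0.1 in 18 of 72 pairs for H3K4me3, 10 of 72 for H3K27ac, 0 of 72 for H3K27me3, 6 of 72 for H3K9me3 and 6 of 9 for ATAC-seq, where it was 0.036, 0.45 and 0.39 for the ICM and TE libraries numbered 1, 2 and 3. The numbers were therefore not used as pairs. For ATAC-seq, TE was above ICM in end coverage in all 3 same-numbered pairs. With the replicate block, the joint tests gave 0.0625 for GV and 2C, for 2C and 4C and for MO and BL, 0.125 for 8C and 8A and 0.03125 for ICM and TE (0.0875 after adjustment). With 2 libraries per group the block leaves few arrangements, and the group differences of each mark kept their side of the threshold under it.

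The counts of called members that follow take higher and lower together. The share of all windows called was not computed at these settings, so only the change in the counts can be read. At the higher minimum of 5 or 20 points the counts were 304 (H3K4me3) and 228 (H3K9me3) for GV and 2C. For 8C and 8A they were 199 (H3K4me3), 108 (H3K27me3) and 101 (H3K9me3). For ICM and TE they were 120 (H3K4me3), 111 (H3K27me3), 363 (H3K9me3) and 161 (ATAC-seq). Trimmed lists gave 317 for H3K27ac between 8C and MO and 150 for H3K9me3 between 8C and 8A. Leaving out one library gave 348 to 875 for H3K4me3 between 8C and 8A. List length, which may move with the unknown depth, limits all absolute coverages.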

Other observations

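The last 2 Mb of the X chromosome, which was not among the members, was also more covered than the rest of X. H3K27me3 covered 41.7% ± 3.49 of it at MO, against 3.49% ± 0.30 of the rest, and 52.5% ± 0.66 at ICM, against 14.3% ± 0.54. H3K9me3 covered 59.8% ± 0.33 at TE, against 5.57% ± 0.074. H3K27ac covered 5.74% ± 0.13 in 8A and 2.03% ± 0.13 in 8C, while the rest of X held 0.948% ± 0.038 and 1.06% ± 0.19. All are means with SD over 2 libraries, a single chromosome, and were not tested.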
